A study of Mus musculus with 24 samples.

Results

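Expression of 8 long noncoding RNAs, Abhd11os, Crnde, Neat1, Malat1, Miat, Meg3, Rmst and Snhg11, was examined in striata of wild type mice and of the R6/1 line, a model of Huntington's disease (HD). They were chosen by gene name, and each had 1 row in all 6 deposited tables, which share 24340 genes. Abhd11os and Crnde were chosen because their values differ strongly between the genotypes, so their genotype values are given as a description without a test. R6/1 mice are hemizygous for a transgene with exon 1 of human HTT that carries an expanded CAG repeat, on a C57BL/6J background, and keep their own Htt alleles. RGFP109 inhibits HDAC1 and HDAC3, enzymes that remove acetyl groups from histones. It was injected at 30 mg/kg, with 5 injections per week over 3 weeks. Treatment began at 11 to 14 weeks of age and striata were taken at 14 to 17 weeks, 18 h after the last injection. The 24 male mice formed the groups WT-vehicle (n = 5), R6/1-vehicle (n = 6), WT-RGFP109 (n = 6) and R6/1-RGFP109 (n = 7), the vehicle groups receiving the solvent alone. The deposited values are FPKM (fragment counts scaled to transcript length and to the mapped fragments of a library), pooled to 1 value per group, so that no spread between mice can be given and no difference between groups was tested here. All statements of higher or lower below compare pooled group values, with the share of all genes past the same limit beside them.

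Long noncoding RNAs are transcripts that are not translated into a known protein. Some act inside the nucleus, where Malat1 gathers in nuclear speckles rich in splicing factors and Neat1 forms the scaffold of paraspeckles. Miat, also called Gomafu, is a nuclear RNA of neurons that binds splicing factors, Meg3 is made from the maternal copy of the imprinted Dlk1-Dio3 region, Rmst works with the transcription factor SOX2 in neurogenesis, and Snhg11 is a host gene of small nucleolar RNAs. Abhd11os is a striatum-enriched RNA transcribed opposite to Abhd11, and Crnde is an RNA first described in colorectal tumours whose gene begins next to the homeobox gene Irx5.

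RefSeq classes all 8 genes as long noncoding RNA. GENCODE M21 on the same build, GRCm38 (mm10), names Snhg11 protein coding and Abhd11os a transcribed unitary pseudogene. Abhd11os lies at chr5:135012122-135013157 on the minus strand (RefSeq), and its last exonic bases meet those of Abhd11, which runs the other way. The shared stretch holds 62 of 701 exonic bases of Abhd11os in GENCODE M21, or 8.84%, and the library kit does not mark strand, so fragments from that stretch cannot be told apart between both genes. Crnde lies at chr8:92326031-92356120 on the minus strand, 1505 bases from Irx5. Malat1 (chr19:5795690-5802672) and Neat1 (chr19:5824708-5845480) are neighbours on the minus strand, 22036 bases apart, and Neat1 has 2 RefSeq transcripts that are summed in its FPKM value. Miat lies at chr5:112213228-112228948 and Rmst at chr10:92081746-92165178, both on the minus strand, while Meg3 (chr12:109540996-109571729) and Snhg11 (chr2:158375713-158386474) lie on the plus strand.

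The levels of the RNAs spanned from 0.585 FPKM for Crnde in WT-RGFP109 to 620 FPKM for Meg3 in R6/1-RGFP109. FPKM is scaled to length, but how evenly the library kit captured these RNAs is not known. The order between genes is thus an order of FPKM only, and without a spread it cannot be said which neighbours in it differ. Meg3 had the highest level, with 562 FPKM in WT-vehicle and 590 in R6/1-vehicle, and with 578 in WT-RGFP109 and 620 in R6/1-RGFP109. By its mean of 588 FPKM it was at rank 51 from the top of all 24340 genes. Snhg11 followed with 303, 303, 349 and 326 FPKM in the same order of groups, at rank 132. Both stayed within a narrow range over the 4 groups. Malat1 came next, then Neat1, then Miat, in every group. In WT-vehicle, Abhd11os (37.0 FPKM) stood directly below Miat (38.1 FPKM) and far above Crnde (0.846 FPKM). In R6/1-vehicle the order of these low members turned, with 2.83 FPKM for Crnde and 1.58 FPKM for Abhd11os. Rmst was near 1 FPKM everywhere (0.862, 0.899, 0.995 and 0.813 FPKM), and its mean of 0.892 FPKM was under the minimum of 1 FPKM used for all genes. Thus 7 of the 8 passed that minimum, as did 13719 of the 24340 genes. Crnde passed it only through the R6/1 groups, since both wild type values were under 1 FPKM.

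**Figure D1:**
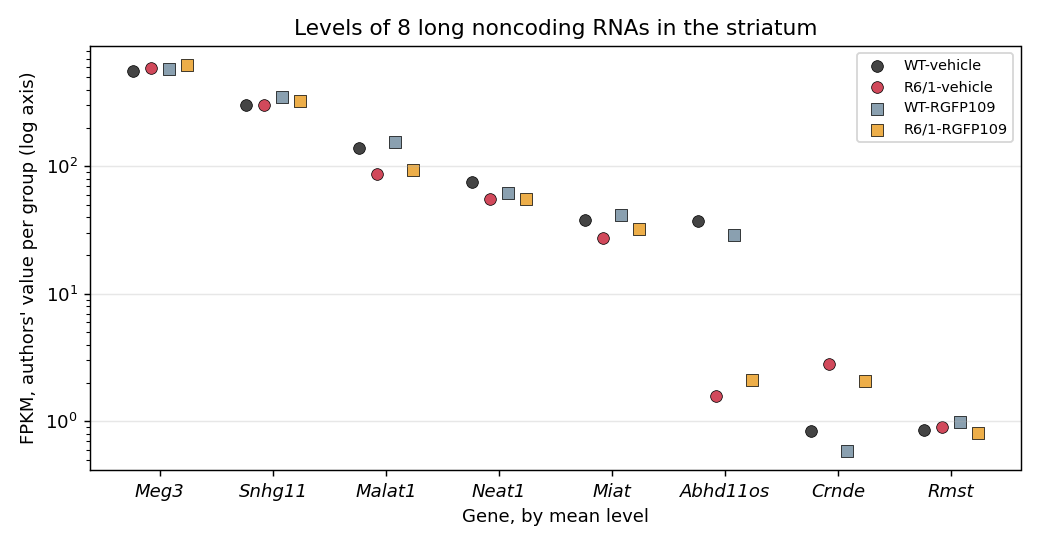
FPKM per group (log axis) of the 8 long noncoding RNAs, ordered by mean level, with 1 point per group (the authors' pooled value, no error available). Abhd11os is near 30 FPKM or above in both wild type groups and near 2 FPKM in both R6/1 groups, Crnde shows the opposite order at a lower level, and the points of Meg3 and Snhg11 lie close together.

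Between the genotypes under vehicle, Abhd11os was 23.3-fold lower in R6/1 mice and Crnde 3.34-fold higher, and Malat1 was also lower. Log2 ratios were taken within the table of each pair of groups after adding 0.05 FPKM, and a value counted as past the limit above 0.5 in size, a 1.41-fold change. By that limit 1 of the 8 was higher and 2 were lower in R6/1-vehicle than in WT-vehicle, against 3.95% of all genes tested that were higher and 10.1% that were lower. This count includes the members chosen for their genotype values, so nothing can be read from it. The median log2 ratio of the 8 was -0.23 and that of all genes tested was -0.00.

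Abhd11os was at 37.0 FPKM in WT-vehicle and 1.58 in R6/1-vehicle, and at 28.7 in WT-RGFP109 and 2.11 in R6/1-RGFP109. Both wild type values were high and both R6/1 values were low. The log2 ratio of R6/1 to wild type was -4.50 under vehicle, lower than that of each of the other 12557 protein coding and long noncoding genes tested, and -3.73 under RGFP109, where 3 of these genes were lower. Among all genes tested, short RNA genes included, 65 had a lower ratio under vehicle and 83 under RGFP109. Fewer cells of a type and less RNA per cell cannot be told apart in striatal tissue. The 13 markers of striatal projection neurons, the main neurons of the tissue, were together at 3503 FPKM in WT-vehicle and at 1385 FPKM in R6/1-vehicle, or 39.5%, while Abhd11os was at 4.29% of its WT-vehicle level. The lowest log2 ratio among these 13 markers was -2.01, for the opioid peptide gene Penk. Abhd11os was chosen for its genotype ratio, so nothing can be read from its rank among genes or its place below these markers. The part of cell number in its ratio was not tested.

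Crnde was at 0.846 FPKM in WT-vehicle and 2.83 in R6/1-vehicle, and at 0.585 in WT-RGFP109 and 2.08 in R6/1-RGFP109. Both R6/1 values were above both wild type values. Its log2 ratio of R6/1 to wild type was 1.68 under vehicle and 1.75 under RGFP109, and 2 and 1 of the other protein coding and long noncoding genes tested had a higher ratio. Among all genes tested, short RNA genes included, 111 and 109 had a higher ratio. Crnde was chosen for its genotype values and passed the minimum only through the R6/1 groups, so nothing can be read from these ranks. The level of Crnde was low throughout, and with 1 FPKM added in place of 0.05 its ratios were 1.05 and 0.96. Of 68 markers tested from 8 cell type lists, 0 were higher past the limit in R6/1-vehicle than in WT-vehicle, against 3.95% of all genes tested. The highest ratio was 0.13 for Cux2, a gene of upper-layer cortical neurons. The part of cell composition in the ratios of Crnde was not tested.

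Malat1 was the third member past the limit, and Meg3 was nearly level with the highest FPKM. The RefSeq promoter windows of both are shown with those of Abhd11os and Crnde, the RNAs with the largest genotype differences. Each runs 5′ to 3′ from 250 bases before to 50 bases after the annotated start (GRCm38.p6). Capitals mark TGACGT, the core of the cyclic AMP response element that CREB binds, and GGGCGG, a GC box bound by SP1, on either strand, with overlapping matches joined. The windows are chr5:135013108-135013407 (minus) for Abhd11os, chr8:92356071-92356370 (minus) for Crnde, chr19:5802623-5802922 (minus) for Malat1 and chr12:109540746-109541045 (plus) for Meg3.
Abhd11os: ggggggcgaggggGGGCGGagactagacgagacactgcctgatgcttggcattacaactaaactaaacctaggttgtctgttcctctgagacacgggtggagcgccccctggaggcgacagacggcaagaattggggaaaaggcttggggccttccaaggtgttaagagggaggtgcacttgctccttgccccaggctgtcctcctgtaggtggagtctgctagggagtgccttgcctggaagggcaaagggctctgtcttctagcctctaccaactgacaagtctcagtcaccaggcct
Crnde: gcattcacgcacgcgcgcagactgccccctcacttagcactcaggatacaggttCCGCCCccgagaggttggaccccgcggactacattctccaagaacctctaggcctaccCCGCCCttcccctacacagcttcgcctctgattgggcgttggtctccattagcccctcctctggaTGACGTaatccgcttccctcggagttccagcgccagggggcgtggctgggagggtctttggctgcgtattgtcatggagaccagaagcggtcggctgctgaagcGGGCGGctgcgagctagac
Malat1: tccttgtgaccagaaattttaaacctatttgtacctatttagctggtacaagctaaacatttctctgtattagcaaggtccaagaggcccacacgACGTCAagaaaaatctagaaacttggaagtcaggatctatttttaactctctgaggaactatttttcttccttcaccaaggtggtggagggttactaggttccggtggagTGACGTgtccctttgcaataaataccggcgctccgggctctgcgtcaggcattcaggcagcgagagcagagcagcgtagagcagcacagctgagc
Meg3: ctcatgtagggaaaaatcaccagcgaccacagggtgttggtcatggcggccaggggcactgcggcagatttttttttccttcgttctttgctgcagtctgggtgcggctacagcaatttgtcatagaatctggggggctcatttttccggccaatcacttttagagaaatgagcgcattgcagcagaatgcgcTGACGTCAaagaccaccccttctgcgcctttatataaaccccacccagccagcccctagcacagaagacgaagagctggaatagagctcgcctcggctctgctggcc

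Abhd11os held no TGACGT in this window and 1 GGGCGG, 237 bases before the start. Crnde held TGACGT once, 73 bases before the start, and GGGCGG 3 times, 2 of them on the opposite strand. Malat1 held TGACGT at 155 bases before the start on the opposite strand and at 45 bases before it, and no GGGCGG. In Meg3 the full palindrome TGACGTCA began 57 bases before the start, followed by overlapping matches of TATAAA from 29 bases before it. Of 32851 promoter windows of this length, 7.51% held TGACGT, 1.79% TGACGTCA, 35.7% GGGCGG and 13.6% TATAAA. CG dinucleotides numbered 7 in Abhd11os, which was the median of all windows, 22 in Crnde, 10 in Malat1, 13 in Meg3, 25 in Miat and 21 in Snhg11. A match describes letters only and is no measure of binding. Promoter windows were matched for 6 of the 8 genes, leaving Neat1 and Rmst.

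The nuclear RNAs Malat1, Neat1 and Miat had lower values in R6/1-vehicle than in WT-vehicle, with ratios on either side of the limit. Malat1 was at 140 FPKM in WT-vehicle and 86.5 in R6/1-vehicle, and at 156 in WT-RGFP109 and 94.1 in R6/1-RGFP109. The R6/1 values were both below the wild type values, with a log2 ratio of -0.69 under vehicle (1.62-fold lower) and -0.73 under RGFP109 (1.66-fold lower). Of all genes tested, 8.05% had a ratio of larger size under vehicle and 6.48% under RGFP109. Miat was at 38.1, 27.4, 41.4 and 32.5 FPKM in the same order of groups. Its log2 ratio of R6/1 to wild type was -0.48 under vehicle, just short of the limit that Malat1 passed, and -0.35 under RGFP109. Neat1 was at 75.5 FPKM in WT-vehicle and 55.0 in R6/1-vehicle, and at 62.2 in WT-RGFP109 and 54.9 in R6/1-RGFP109. WT-vehicle was highest, WT-RGFP109 came next and both R6/1 values were lowest. The log2 ratio of R6/1 to wild type was -0.46 under vehicle and -0.18 under RGFP109.

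The remaining members were close to level between the genotypes. Meg3 had a log2 ratio of R6/1 to wild type of 0.07 under vehicle and 0.10 under RGFP109. For Snhg11 the ratio was 0.00 under vehicle, smaller in size than that of 98.8% of all genes tested, and -0.10 under RGFP109. Rmst had ratios of 0.06 and -0.28, with all its values under 1 FPKM. Under RGFP109, 1 of the 8 was higher and 2 were lower in R6/1 mice, the same members as under vehicle, against 3.51% and 8.69% of all genes tested. Abhd11os and Crnde, chosen for their genotype values, are in this count too, so nothing can be read from it.

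**Figure D2:**
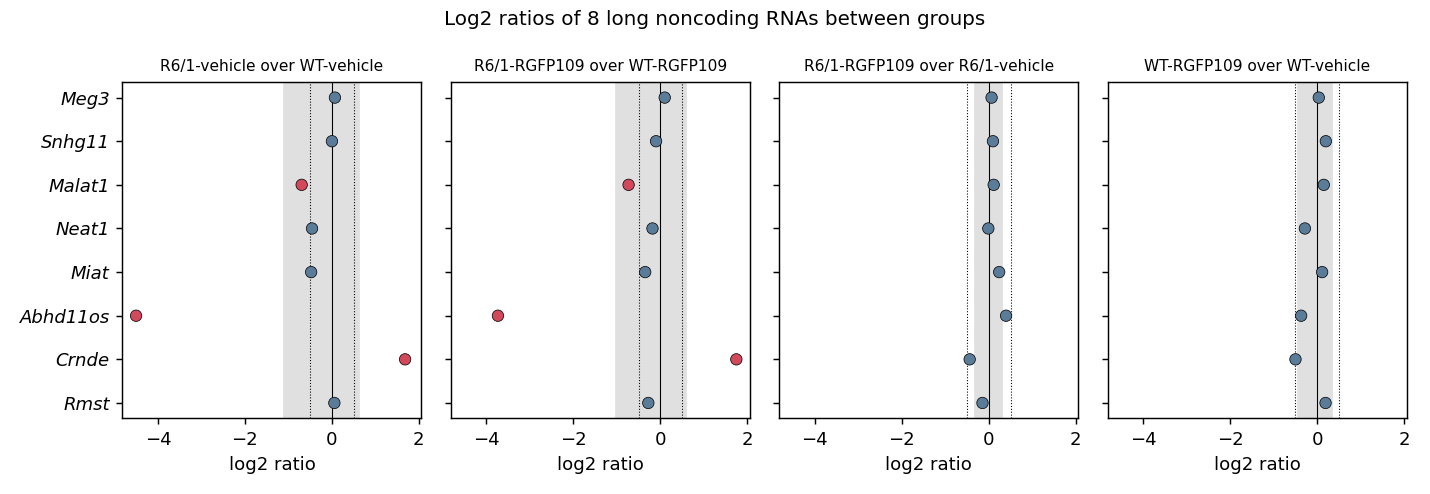
Log2 ratios of the 8 long noncoding RNAs in the 4 comparisons named above the panels, 1 point per gene, in red where past 0.5 in size (dotted lines). The grey band holds the middle 95% of all 13719 genes tested. Abhd11os and Crnde lie outside the band in both genotype comparisons, Malat1 lies within it past the dotted line, and no point passes 0.5 in the treatment comparisons.

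No member passed the limit with RGFP109 in either genotype, but Crnde in wild type mice lay at the limit itself. In R6/1 mice, 0 of 8 passed, against 3.04% of all genes tested, and in wild type mice 0 of 8 passed, against 3.82%. Short RNA genes held many of these calls, and without rows of miRNAs and snoRNAs, a choice made after seeing the data, the shares were 1.03% and 1.69%. Crnde had a lower value with RGFP109 in both genotypes, with log2 ratios of -0.44 in R6/1 mice (2.93 to 2.14 FPKM) and -0.50 in wild type mice (0.817 to 0.563 FPKM). With 1 FPKM added in place of 0.05, these ratios were -0.32 and -0.22. Values for a comparison are those of its own table and differ slightly from those above. Abhd11os had a higher value with RGFP109 in R6/1 mice (1.64 to 2.18 FPKM, log2 ratio 0.40) and a lower value in wild type mice (35.7 to 27.6 FPKM, -0.37). Among all genes tested, 3.83% and 5.55% had ratios of larger size in these comparisons. With 1 FPKM added in place of 0.05, the ratio of Abhd11os in R6/1 mice was 0.27. How much of its low R6/1 values came from the stretch shared with Abhd11 is not known.

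The log2 ratios with RGFP109 for Malat1 were 0.11 in R6/1 and 0.15 in wild type mice, and those for Miat were 0.24 and 0.11. Meg3 had 0.06 and 0.04, and Snhg11 0.10 and 0.20, so that these 4 RNAs had slightly higher values with RGFP109 in both genotypes. Neat1 was level in R6/1 mice (-0.01) and had a lower value with RGFP109 in wild type mice (-0.28), and Rmst had -0.14 and 0.19. The median over the 8 was 0.08 in R6/1 mice and 0.07 in wild type mice, and that of all genes tested was 0.00 and -0.00.

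The genotype ratio under RGFP109 minus that under vehicle was past 0.5 for 1 of the 8 members, against 5.55% of all genes tested. This was Abhd11os, with a difference of 0.77 on the log2 scale, made up of the higher R6/1 value and the lower wild type value with RGFP109. Of all genes tested, 3.24% had a difference of larger size. The difference contains the vehicle genotype ratio for which Abhd11os was chosen, so nothing can be read from that count or share. Neat1 had a difference of 0.28 and Rmst of -0.33, while those of Miat (0.13), Snhg11 (-0.10), Crnde (0.06), Malat1 (-0.04) and Meg3 (0.03) were smaller. With 1 FPKM added the difference was -0.17 for Rmst and -0.09 for Crnde, whose sign turned. Whether these differences exceed the spread between mice was not tested.

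Set against WT-vehicle, R6/1-RGFP109 mice kept values of Abhd11os, Crnde and Malat1 past the limit, 3 of 8 against 13.9% of all genes tested. With Abhd11os and Crnde chosen for their genotype values, nothing can be read from that count. Abhd11os was 17.6-fold lower (2.11 against 37.1 FPKM) and Crnde 2.45-fold higher (2.08 against 0.848 FPKM). For Malat1 the log2 ratio was -0.58, for Neat1 -0.46 and for Miat -0.23. These comparisons share groups with those above and are not independent of them.

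Genes around Abhd11os that passed the minimum had genotype ratios of smaller size. Abhd11os was chosen for its ratio, so nothing can be read from this contrast. Abhd11, a member of the abhydrolase family that overlaps it on the other strand, was at 33.6 FPKM in WT-vehicle and 27.8 in R6/1-vehicle, and at 32.4 in WT-RGFP109 and 28.3 in R6/1-RGFP109, with log2 genotype ratios of -0.27 and -0.20. Stx1a, the syntaxin gene 10415 bases further on, had -0.59 and -0.34. Of the 7 genes within 100 kb that passed the minimum, leaving out miRNAs and snoRNAs, 1 was lower past the limit under vehicle, which was Stx1a, and 0 were higher. Of all genes tested, 10.1% were lower and 3.95% higher. On the other side the nearest rows, Cldn3 and Wbscr25, were under 1 FPKM. Irx5, the divergent neighbour of Crnde, was at 0.137 FPKM in WT-vehicle and 0.153 in R6/1-vehicle, and at 0.0355 in WT-RGFP109 and 0.161 in R6/1-RGFP109, under the minimum in every group.

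Along the Malat1 and Neat1 stretch of chromosome 19, Ltbp3, on the side of Malat1, had log2 genotype ratios of 0.09 under vehicle and 0.04 under RGFP109. Frmd8, the next gene beyond Neat1, was at 15.3, 11.0, 12.5 and 11.4 FPKM in that order of groups, with ratios of -0.48 under vehicle and -0.13 under RGFP109. These values run close to those of Neat1 in relative terms. Next to Miat, Cryba4, a crystallin gene, had -0.29 and -0.82 at levels of 0.900 to 1.68 FPKM, and 1700028D13Rik was listed at 0. Snhg11 lay between Snhg17 (0.12 and 0.10) and Ralgapb (0.17 and 0.07). Near Rmst the long noncoding RNA Gm20757 was at most at 0.0191 FPKM and Mir1251, within Rmst, was listed at 0 in 3 of the 4 groups.

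**Figure D3:**
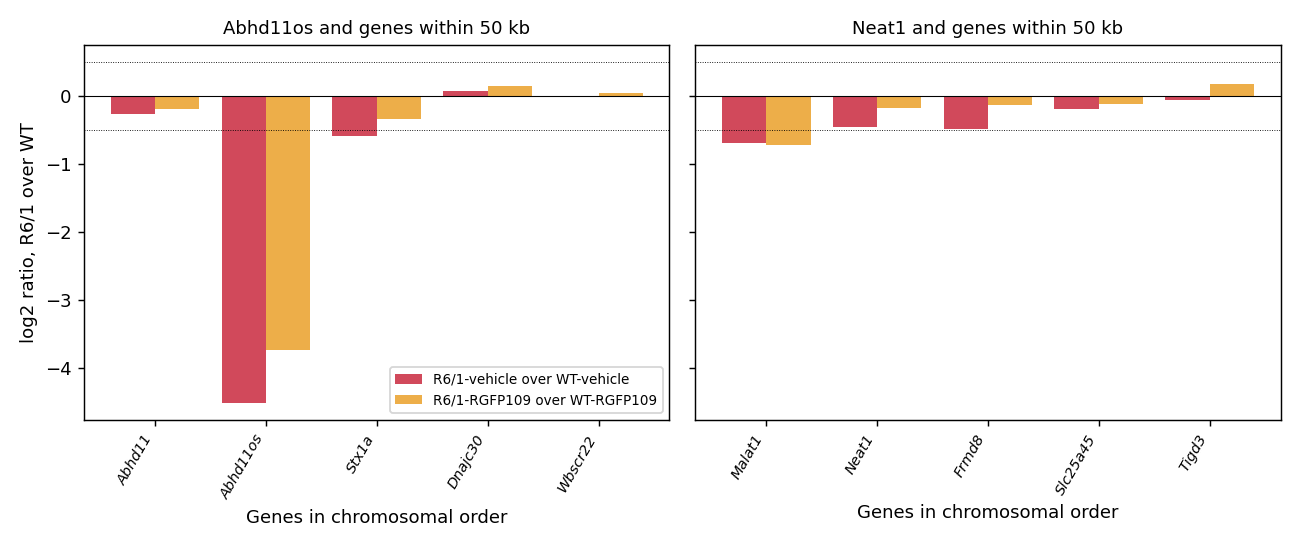
Log2 ratios of R6/1 to wild type under vehicle (red) and RGFP109 (orange) for Abhd11os and Neat1 and the genes within 50 kb of each that passed 1 FPKM, in chromosomal order, with dotted lines at 0.5 in size. Abhd11os has lower ratios than each neighbour shown, whereas Malat1, Neat1 and Frmd8 are adjacent genes with lower values under vehicle.

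In the imprinted region of Meg3, the maternal RNAs Rian and Mirg had larger genotype ratios than Meg3. Rian was at 122 FPKM in WT-vehicle and 154 in R6/1-vehicle, a log2 ratio of 0.34, and Mirg at 22.5 and 29.9 FPKM, a ratio of 0.41. Dlk1, the paternal gene for a Notch ligand-like protein, had 0.38 under vehicle and 0.62 under RGFP109. Of the 3 tested genes of this list, 0 were past the limit under vehicle, against 14.1% of all genes tested. Under RGFP109, 1 was higher, which was Dlk1, against 3.51% of all genes tested. Dio3, the deiodinase gene at the far end, was at 1.40 FPKM in WT-vehicle and 0.398 in R6/1-vehicle and did not reach the minimum, nor did Rtl1. 6430411K18Rik, the nearest long noncoding gene after Meg3, was at 11.3 FPKM in WT-vehicle and 6.13 in R6/1-vehicle, a ratio of -0.88, and shares its locus with Rtl1 on the opposite strand. Mir770, inside Meg3, had values of nearly 0 in each group.

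The proteins that work with these RNAs had smaller genotype ratios than Malat1. Of 14 genes for paraspeckle proteins, which assemble on Neat1, 0 passed the limit in any of the 4 comparisons, with a median log2 ratio of 0.19 under vehicle. Their highest ratio under vehicle was 0.41, for Nudt21, followed by Pspc1 with 0.40, and the core proteins Sfpq and Nono had 0.01 and 0.26. Their summed level was 582 FPKM in WT-vehicle and 658 in R6/1-vehicle, while Neat1 had its lower value in R6/1-vehicle. Of 14 genes for nuclear speckle and splicing proteins, likewise 0 passed, with a median of 0.03. Those for the splicing factors that bind Miat had ratios of -0.44 for Qk, -0.39 for Celf3 and -0.01 for Sf1. Of 7 genes for Polycomb repressive complex members and Sox2, the partner of Rmst, 0 passed, and Sox2 itself had -0.24. The genes tested showed 14.1% past the limit in either direction under vehicle.

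Summed markers of every cell type list but choroid plexus were highest in WT-vehicle and next in WT-RGFP109, as Neat1 was. The 10 oligodendrocyte markers summed to 4837 FPKM in WT-vehicle and 2743 in R6/1-vehicle, and to 3784 in WT-RGFP109 and 3089 in R6/1-RGFP109, none of them at 0, and Neat1 had the same order of groups except that its R6/1 values were equal to within 1 FPKM. Relative to WT-vehicle, the oligodendrocyte sum was 56.7%, 78.2% and 63.9% in the other groups, and Neat1 was at 72.9%, 82.5% and 72.8%. In WT-RGFP109 the sums of the other lists but choroid plexus were at 93.3% (neocortex) to 99.7% (microglia). Mbp alone held 3028 of the 4837 FPKM of oligodendrocyte markers in WT-vehicle. Mog, Olig1 and Olig2 had higher values in R6/1-RGFP109 than in WT-RGFP109. Under vehicle 5 of the 10 markers were lower past the limit, among them Mbp, Mag, Mobp and Ugt8a, with log2 ratios from -0.95 to -0.51. Of all genes tested, 10.1% were lower. Under RGFP109 0 of the 10 were, against 8.69% of all genes tested. With RGFP109 the log2 ratios of these 10 markers were -0.42 to -0.23 in wild type mice and 0.05 to 0.19 in R6/1 mice. The 8 astrocyte markers summed to 1223, 881, 1219 and 881 FPKM, and Miat was at 71.8%, 109% and 85.3% of its WT-vehicle level in the other groups. Of these, Slc1a2 (-0.73) and Aldoc (-0.57) were lower past the limit under vehicle. The 8 neocortex markers summed to 411, 230, 384 and 283 FPKM, or 55.9%, 93.3% and 68.9% of WT-vehicle in the other groups, and none was at 0. With RGFP109 in R6/1 mice, 3 of these 8 were higher past the limit, against 3.04% of all genes tested in either direction, with a median log2 ratio of 0.43, where Miat had 0.24 and Malat1 0.11. The part of cell composition in the ratios of Neat1, Miat and Malat1 was not tested.

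**Figure D4:**
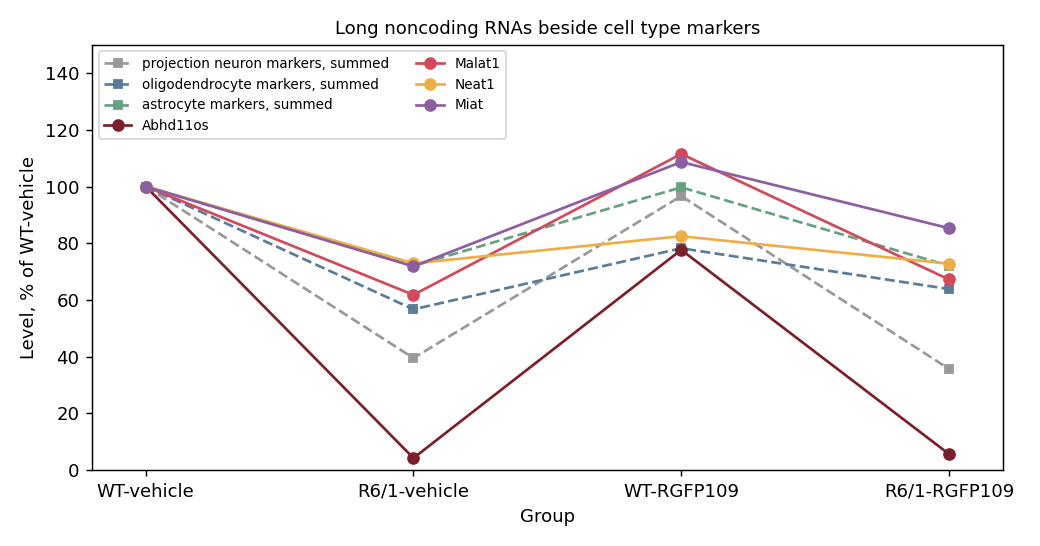
Level in each group as a percentage of WT-vehicle for 4 long noncoding RNAs (solid lines, circles) and for summed markers of 3 cell types (dashed lines, squares). Lines join the unordered groups only to guide the eye. Abhd11os is at 4.29% in R6/1-vehicle, below the summed projection neuron markers at 39.5%, and Neat1 is at 82.5% in WT-RGFP109, where the oligodendrocyte markers are at 78.2%.

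Markers of other tissue and cell types also differed between the pooled groups. Under vehicle 36 of the 68 markers tested were lower past the limit in R6/1 mice and 0 were higher, against 10.1% and 3.95% of all genes tested. They included 9 of 13 for projection neurons (among them Ppp1r1b, Drd1, Drd2, Adora2a, Penk, Rgs9, Gpr6 and Pde10a, -2.01 to -0.99) and 6 of 7 for interneurons (Pvalb, Sst, Npy, Chat, Nos1 and Slc5a7). A further 7 of 8 were neocortex genes (among them Neurod2, Neurod6, Tbr1, Slc17a7, Nrn1 and Fezf2), 6 of 7 choroid plexus genes (Kl, Folr1, Kcne2, Otx2, Sostdc1 and Aqp1) and 1 of 7 endothelial genes (Cldn5), and 0 of 8 microglia markers passed. The choroid plexus sum was 44.6 FPKM in WT-vehicle and 26.1 in R6/1-vehicle, and 17.2 in WT-RGFP109 and 10.6 in R6/1-RGFP109, lower with RGFP109 in both genotypes, as the values of Crnde were, and lower in R6/1 mice, where Crnde was higher. Its part in the values of Crnde was not tested. The striatal markers were present in every group, with Ppp1r1b, the gene for DARPP-32, between 399 and 1149 FPKM.

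Among all 417 genes of RefSeq's long noncoding class that passed the minimum, 29 were higher and 47 lower past the limit in R6/1-vehicle than in WT-vehicle, 18.2% in all, compared with 12.1% of 12141 protein coding genes. Under RGFP109, 36 were higher and 36 lower. The class also had the larger share past the limit with RGFP109. It was 2.64% against 0.922% of protein coding genes in R6/1 mice, and 3.60% against 1.49% in wild type mice. The larger share of the class was thus not particular to the genotype comparisons, and its cause was not tested. Past the limit in both genotype comparisons, 13 were higher (3.12%) and 24 lower (5.76%), against 1.33% and 6.32% of protein coding genes. Abhd11os had the lowest and Crnde the highest ratio of the class under vehicle. Both were chosen for their genotype values, so nothing can be read from these places. The values next to those of Abhd11os and Crnde were -1.71 for Gm20319 and 1.18 for AW495222, named after their values were seen. Under RGFP109 the ratio of Hotairm1 (2.79) was above that of Crnde. Like Crnde, Hotairm1 passed the minimum only through the R6/1 groups, so nothing can be read from this order.

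**Figure D5:**
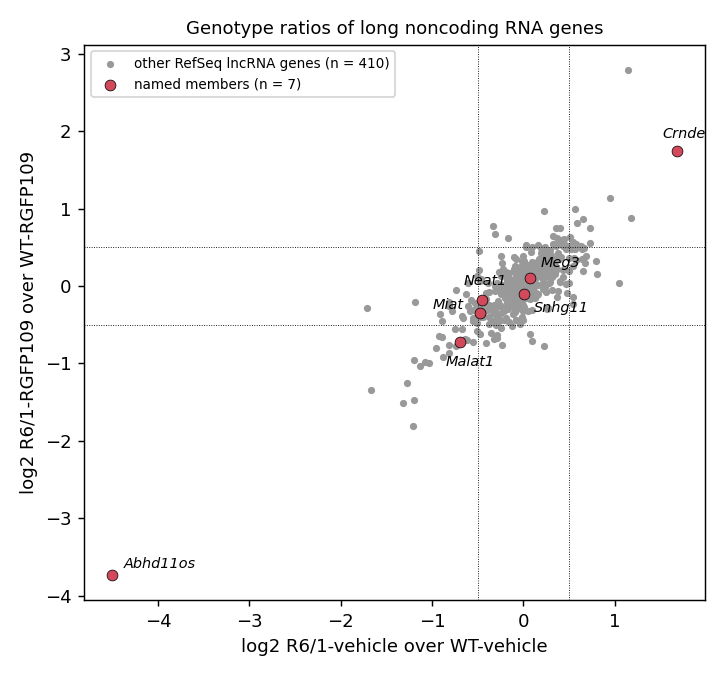
Log2 ratio of R6/1 to wild type under vehicle (horizontal) and under RGFP109 (vertical) for the 417 RefSeq long noncoding RNA genes that passed 1 FPKM, with the 7 members in red and dotted lines at 0.5 in size. Abhd11os at the lower left and Crnde at the right stand away from the other points, Malat1 lies past both dotted lines, and Meg3 and Snhg11 lie in the centre.

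A list of 69 other known long noncoding RNAs placed the members among better described transcripts, with 42 of them passing the minimum. RefSeq classes 36 of these as long noncoding and 2 as protein coding. Under vehicle 2 were higher and 3 lower past the limit, or 11.9%, near the 14.1% of all genes tested. Snhg14, the host transcript antisense to Ube3a, was at 2.65 FPKM in WT-vehicle and 3.90 in R6/1-vehicle (log2 ratio 0.55). Hotairm1, from the HoxA cluster, was at 0.624 and 1.44 FPKM (1.15). It passed the minimum only through the R6/1 groups, with 0.370 FPKM in WT-RGFP109 and 2.86 in R6/1-RGFP109. Lower values were found for Dlx1as, antisense to the interneuron gene Dlx1 (7.74 and 3.37 FPKM, -1.19), Mhrt, antisense to a cardiac myosin gene (4.93 and 2.12 FPKM, -1.20), and Rpph1, the RNA of ribonuclease P (2.56 and 1.66 FPKM, -0.61). All 5 had a ratio of the same sign past the limit under RGFP109. Between the genotypes under RGFP109, 3 of the list were higher and 5 lower, or 19%, against 12.2% of all genes tested. With RGFP109 in R6/1 mice 1 was higher and 2 were lower, or 7.14% against 3.04%, and in wild type mice 0 were higher and 2 lower, or 4.76% against 3.82%, Rpph1 being lower in both genotypes (-0.76 and -0.78). The genes of the list with the highest mean levels, 6330403K07Rik, which RefSeq classes as protein coding, Rian, Pantr1, Peg13 and Snhg6, had log2 genotype ratios under vehicle of -0.06, 0.34, -0.47, 0.25 and -0.17.

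The genes with the pattern closest to Abhd11os over the 4 group values, by Euclidean distance of centred log2 levels among the 13719 genes, were Gpx6 (distance 0.80), a glutathione peroxidase gene, Scn4b (1.19), a sodium channel beta subunit gene, and Ptpn7 (1.35), a tyrosine phosphatase gene. Gpx6 was at 5.02 FPKM in WT-vehicle and 0.182 in R6/1-vehicle, and at 4.92 in WT-RGFP109 and 0.126 in R6/1-RGFP109, and Scn4b at 327, 40.8, 289 and 35.4 FPKM. All had high values in the wild type and low values in the R6/1 groups, but their log2 ratios with RGFP109 in R6/1 mice were -0.41, -0.21 and -0.27, whereas that of Abhd11os was 0.40. Gpx6 and Ptpn7 (0.340 FPKM in R6/1-vehicle and 0.274 in R6/1-RGFP109) passed the minimum only through the wild type groups. Nothing can be read from their ratios with RGFP109 in R6/1 mice. Closest to Crnde were Sfmbt2 (0.46), a Polycomb group gene, Tpx2 (0.51), a spindle assembly gene, and Mir485 (0.60). Sfmbt2 was at 0.772 FPKM in WT-vehicle and 3.05 in R6/1-vehicle, and at 0.827 in WT-RGFP109 and 2.71 in R6/1-RGFP109, and Tpx2 at 0.860, 2.42, 0.836 and 2.34 FPKM. Like Crnde, Sfmbt2 and Tpx2 passed the minimum only through the R6/1 groups. The distances describe 4 pooled values each and carry no test.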

How the data were processed

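Striatal RNA-seq data of 24 mice in 4 groups were used. RNA libraries were made with a TruSeq RNA kit and sequenced as single-end reads in pools that each held libraries of all groups. Per the submitters' processing notes, the authors aligned reads with STAR 2.5.0b to mm10 and obtained FPKM values with Cufflinks 2.2.1. Groups were compared pairwise with Cuffdiff by the authors, and the 6 deposited tables give 1 pooled FPKM value per group and gene. These tables also hold a fold change, a test statistic, p- and q-values and a status, which are the authors' own comparisons and were not used. The FPKM values were scaled within each pair, so that the same group differed between tables by a common factor of 96.2% to 104% in the median. Sequencing pools cannot be separated in pooled values.

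Depth per library is unknown. Among 1725 genes above 0 and under 0.1 FPKM in both vehicle groups, at most 27 shared a ratio within 0.01 on the log2 scale, so no read counts were recovered, and no interval from counts is given.

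Only the 24340 genes found in every table were kept. Group levels were read from the genotype table of the same treatment. Log2 ratios were taken within a table after adding 0.05 FPKM, which understates the change of low genes. A mean of at least 1 FPKM over the groups was required for genes tested, and 0.5 was the limit on the log2 scale. The members and lists were chosen with earlier results of these data known. Genes named from the lists were the long noncoding RNAs past the limit in the vehicle genotype comparison and in at least 1 more, the 5 with the highest mean, those of other lists past the limit under vehicle, overlapping or nearest genes within 100 kb, and the 3 genes closest in pattern to Abhd11os and to Crnde. Other genes named for their known role (such as Qk, Sox2 or Rian) were taken from the lists after their values were seen. The results of some genes under this rule are not reported here. Biotypes, starts and promoter sequences were taken from RefSeq (GRCm38.p6) and exons from GENCODE M21. By symbol, 13113 of the 13719 genes tested had a RefSeq entry. Alternatives changed the pseudocount, limit, minimum, centring and the table used. Scripts were tested on simulated data. Python 3.11.15, numpy 2.4.6, pandas 2.3.3 and matplotlib 3.10.9 were used.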

Additional observations from a re-analysis of the deposited data

How the results depend on the processing

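No paired analysis was possible because the deposited columns are pooled group values that carry no replicate numbers, and for the same reason no replicate could be left out. All 32 log2 ratios of single members in the genotype and treatment comparisons moved by under 0.1 with no pseudocount, when rebuilt through the other groups, or after median centring. With 1 FPKM added, 8 moved by more, all of Abhd11os, Crnde or Rmst, with no called ratio reversed: Abhd11os had -3.88 and -3.25 in the genotype comparisons, and Crnde -0.32 and -0.22 in the treatment comparisons of R6/1 and wild type mice. Counts of members turned on the limit. At a limit of 1, 1 member was lower in each genotype comparison. At 0.3, 4 were lower under vehicle, 1 was higher and 1 lower with RGFP109 in R6/1 mice, and 2 were lower with RGFP109 in wild type mice. Crnde stood at the limit there, and 1 member was lower with no pseudocount and 1 when rebuilt through the other groups. For the other long noncoding RNAs, values are given as higher and lower. With no minimum, they were 4 and 5 under vehicle, 8 higher under RGFP109, 2 and 4 with RGFP109 in R6/1 mice and 5 lower in wild type mice. With a minimum of 5 FPKM, they were 0 and 1, 1 and 3, 0 and 1, and 0 lower. At a limit of 1, 1 was higher under vehicle, 1 and 0 under RGFP109, 0 and 0 in R6/1 mice and 0 lower in wild type mice. With 1 FPKM added, 1 was higher under vehicle and 1 was lower with RGFP109 in each genotype. With only genes that RefSeq classes as long noncoding, added after seeing the data, 1 was lower under vehicle, 3 under RGFP109, and 1 with RGFP109 in each genotype. The cause of these shifts was not tested beyond the fewer or more genes that each setting admits. The difference of genotype ratios of Abhd11os was 0.77 from the treatment ratios and 0.62 with 1 FPKM added, where that of Rmst was -0.17 and that of Crnde turned from 0.06 to -0.09, and the number of members past the limit stayed at 1.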
